A study of Mus musculus with 4 samples.

Results

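Eroded H3K27ac domains are broad stretches of acetylated chromatin in GATA1-null erythroid progenitor cells that were still marked after GATA1 was restored, but over less than 50% of their length. A domain was a peak of at least 4000 bp in the list that the authors called on the pooled G1E replicates. It counted as eroded when the pooled peaks of the G1E-ER4+E2 cells overlapped it by at least 1 bp and covered less than 50% of it. The rule found 1120 domains among the 11684 domains of the pooled G1E list (9.59%), which itself held 24332 peaks. Of the 10077 domains with any overlap, 11.1% were eroded. The other 8957 overlapping domains are called mostly kept here, and 1607 domains (13.8%) had no overlap with a G1E-ER4+E2 peak. The pooled lists chose the eroded domains, so their number and the length lost are descriptions, and no test was run on them.

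The study mapped H3K27ac by ChIP-seq (immunoprecipitation with antibody Ab4729 from Abcam, followed by sequencing) in 2 states of a mouse cell model of adult erythropoiesis. G1E cells are immortalized erythroid progenitors derived from embryonic stem cells of strain 129 in which Gata1 was knocked out, and they were left untreated. G1E-ER4 cells are a line made from G1E with a virus carrying GATA1-ER, a GATA1 protein that acts only when hormone is present, and they received 10 nM estradiol for 24 h (G1E-ER4+E2). Each state had 2 replicates, and both states lack the endogenous Gata1 gene. GATA1 restoration, the estradiol and the separate line differ together between the states and cannot be told apart. Whether the replicates were separate cultures is not stated. The data hold no RNA, so the identity of the cells was not checked against marker genes.

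GATA1 is the transcription factor that drives erythroid maturation, and it both activates and represses genes. Acetylation of lysine 27 on histone H3 marks active promoters and enhancers, and it is written by coactivators such as EP300 and removed by histone deacetylases. Where many marked elements lie close together, a broad-peak caller joins them into 1 domain, so a domain can shrink when some of its elements are no longer called.

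A few eroded domains hold DNA segments that were cloned and tested for enhancer activity, in the study or in earlier work that it compiled. These segments are the fine-scale landmarks inside the eroded domains, and the primers that amplified 4 of them are shown because they fix where the tested DNA sits within the part that stayed marked. TAL1_1496 lay at chr14:118593773-118594280, TAL1_2750 at chr2:167875758-167876211, TAL1_4652 at chr9:45611361-45612037 and TAL1_379 at chr10:24354922-24355529 (mouse build mm9). The primers are written 5′ to 3′, forward before reverse, in lower case throughout, because none of them holds a GATA motif (AGATAA on either strand, also with T as its first letter or G as its last) to put in capitals.
TAL1_1496 forward: acagacttcggagatgcctt
TAL1_1496 reverse: ggcccaaatagatgaataccgagac
TAL1_2750 forward: aggctacacagcagtgttctcttg
TAL1_2750 reverse: cgcgcagcgctaagtaaacagaaa
TAL1_4652 forward: cccaagatgcccagaatcc
TAL1_4652 reverse: catctcctttgggctgctta
TAL1_379 forward: ataccaaccgtatttcccgtgc
TAL1_379 reverse: tacacattccagcaaggagatgcc

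The depth behind these values is unknown, because the lists give peaks without reads. The pooled G1E list covered 139.9 Mb and the pooled G1E-ER4+E2 list covered 200.5 Mb. The replicate lists covered 126.3 and 113.1 Mb in G1E and 162.9 and 160.7 Mb in G1E-ER4+E2. The median fold enrichment of a peak was 5.82 in the pooled G1E list and 2.80 in the pooled G1E-ER4+E2 list, so enrichments were compared only as percentiles within a list. Domains were eroded in the other direction as well. Of the 15511 peaks of at least 4000 bp in the pooled G1E-ER4+E2 list, 3026 (19.5%) overlapped G1E peaks that covered less than 50% of them.

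The eroded domains had a median width of 7800 bp (interquartile range 5600 to 11600 bp), and the widest spanned 79400 bp. They lost a median of 65% of their length (57.6% to 74.3%), with a highest value of 98.9%. In bases, the median loss was 5100 bp (3600 to 8000 bp) and the median length kept was 2600 bp (1800 to 3800 bp). The rule fixes that over 50% of each was no longer called. What remained was in most cases shorter than the width that made it a domain. At least 75% of the length was lost in 24.4% of eroded domains and at least 90% in 38 domains. At least 10 kb was lost in 185 and at least 20 kb in 25, whereas 73 kept 1000 bp or less.

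The eroded domains covered 10.97 Mb, which was 9.87% of all domain bases, and they lost 7.46 Mb of it (67.9%). This was 26.7% of all the domain bases that the pooled G1E-ER4+E2 peaks no longer covered. Mostly kept domains, which could lose up to 50% of their length, made up 34.8% of the lost bases, and domains without overlap made up 38.5%. A mostly kept domain lost a median of 200 bp, and 4221 of the 8957 lost nothing.

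At the coverage limit, the domains just inside were chr1:138022601-138043200, with 49.5% of 20.6 kb kept, and chr16:35800001-35819000, with 49.5% of 19.0 kb kept. Just outside, chr8:4257001-4261000 and chr19:5566801-5571200 were covered over exactly 50%, as were 67 domains in all. Coverage was between 45% and the limit in 186 eroded domains, and 280 mostly kept domains were covered over 55% or less. At the width limit, 39 eroded domains were exactly 4000 bp wide, and 32 peaks of 3800 bp met the other conditions. The shares kept were lowest, with an overlap of 200 bp, in chr4:149981001-149999200 (1.099% kept) and chr5:135706201-135719000 (1.56% kept).

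Loss ran inward from both ends in most eroded domains. Both ends were lost in 755 of the 1120 (67.4%), the lower-coordinate end only in 177 (15.8%), the higher-coordinate end only in 177 (15.8%), and neither end in 11 (0.982%), where the loss was interior. An end counted as lost from 200 bp, and counting it only from 600 bp gave loss at both ends in 56.5%. The longer loss fell about as often on either side. Among the 755, it was at the lower end in 360, at the higher end in 373, and equal in 22. The median loss in these 755 was 2400 bp at the lower end and 2600 bp at the higher end. The centre of the longest kept piece stood at a median of 50% of the domain length (33.3% to 64.1%). Loss was still uneven within single domains, since 1 end lost at least 3 times as much as the other in 356 of the 755. Among the 4736 mostly kept domains that lost anything, both ends were lost in 23.7%, the lower end only in 31.9%, the higher end only in 33.2%, and the interior only in 11.2%. The 2 classes were set apart by the length lost, and the part of that in this difference was not tested.

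What stayed marked was usually 1 continuous piece. The kept part was 1 piece in 958 eroded domains (85.5%), 2 pieces in 144 and at least 3 pieces in 18, with up to 5 pieces in a domain. Some interior length was lost in 162, with a median of 3100 bp (1450 to 6400 bp) in these.

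**Figure D1:**
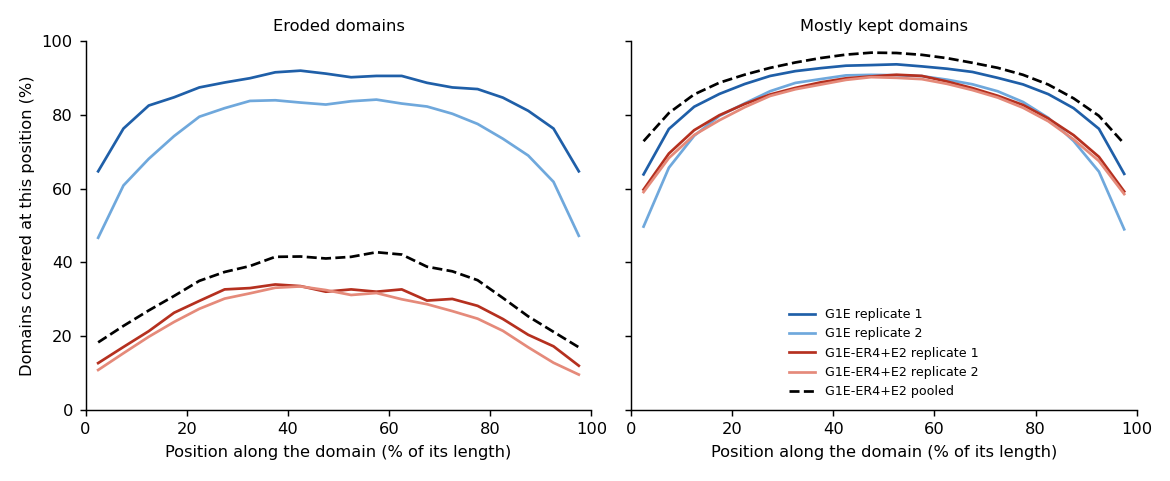
Share of domains covered by peaks (vertical axis, %) along the domain, scaled from the lower-coordinate end (0%) to the higher-coordinate end (100%) in 20 bins, for the 1120 eroded domains (left) and the 8957 mostly kept domains (right). Solid lines are the 4 replicate lists and the dashed line is the pooled G1E-ER4+E2 list. In the eroded domains the G1E-ER4+E2 lines lie far below the G1E lines at every position, whereas the 4 replicate lines lie close together in the mostly kept domains. All lines are lowest at the ends in both classes.

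The plot of coverage along the domain shows this shape over all members. Coverage by the pooled G1E-ER4+E2 peaks fell toward both ends of the eroded domains, to 18.3% of domains in the first bin and 17.0% in the last. In bin 10 of 20 it was 41.1%. In mostly kept domains it also fell, from 96.9% in bin 10 to 72.9% in the first bin and 72.2% in the last. Coverage in the G1E replicates also fell toward the ends, in eroded and mostly kept domains alike, so the outer parts of a pooled domain were the parts that single G1E replicates called least often.

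The replicate lists show how far each loss holds in single libraries. The pooled lists are pools of the replicates, so the replicate lists are not independent of the rule. The eroded domains were covered over a median of 92.5% (79.2% to 100%) in G1E replicate 1 and 81.3% (64.7% to 93.9%) in G1E replicate 2. In G1E-ER4+E2 they were covered over 28.0% (15.8% to 37.8%) in replicate 1 and 25.8% (12.4% to 36.6%) in replicate 2. Both replicates of each state thus lay on the same side, with the G1E replicates further apart than the G1E-ER4+E2 replicates. Mostly kept domains had medians of 93.7% and 86.4% in the G1E replicates and 88.0% and 87.8% in the G1E-ER4+E2 replicates.

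Both G1E replicates covered more of the domain than both G1E-ER4+E2 replicates in 978 of the 1120 eroded domains (87.3%), beside 34.8% of all overlapping domains. By at least 10 percentage points, this was so in 925 (82.6%), beside 25.5%. The opposite order was seen in 7 eroded domains (0.625%), beside 18.5%. With 2 replicates against 2, an exact two-sided permutation test cannot go below p = 0.333, so no p-value is given.

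Stricter readings left fewer domains. At least 50% of the domain was covered in both G1E replicates in 913, and less than 50% in both G1E-ER4+E2 replicates in 1027. Both held in 842 (75.2%), beside 11.7% of all overlapping domains. The rule itself limits the G1E-ER4+E2 coverage of these domains. The remaining domains include 207 that were covered over less than 50% in a G1E replicate and 93 that were covered over at least 50% in a G1E-ER4+E2 replicate. No peak overlapped the domain in 14 cases in either G1E replicate and in 59 cases in either G1E-ER4+E2 replicate, so these domains or their kept pieces were called only on the pooled data.

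The lost bases themselves were covered over 84.0% and 71.2% in G1E replicates 1 and 2, and over 2.93% and 2.12% in G1E-ER4+E2 replicates 1 and 2. By definition the lost bases lie outside the pooled G1E-ER4+E2 peaks, and those of mostly kept domains showed much the same pattern, with 77.7% and 60.3% in G1E and 5.54% and 5.84% in G1E-ER4+E2. The kept bases of eroded domains were covered over 94.7% and 90.8% in G1E and 74.9% and 70.1% in G1E-ER4+E2. Under the strictest reading, the lost part was covered over at least 80% in both G1E replicates and at most 20% in both G1E-ER4+E2 replicates. This held for 332 eroded domains (29.6%), beside 22.2% of the 5856 overlapping domains that lost any length.

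The rule was also applied between single replicate lists, which shows how often it finds erosion where the state did not change. Between replicates of 1 state, 4.88% ± 2.43 (SD over 4 ordered pairs) of domains were eroded, from 1.83% (G1E replicate 2 domains in replicate 1 peaks) to 7.76% (G1E replicate 1 domains in replicate 2 peaks). From G1E to G1E-ER4+E2 the value was 12.5% ± 2.08, from 10.6% to 14.6%. From G1E-ER4+E2 to G1E it was 18.3% ± 1.94, from 16.4% to 20.1%. The groups of pairs did not overlap, but the 4 pairs of a group share libraries and are not independent. Erosion between G1E replicates reached 874 domains, and how many of the 1120 this spread accounts for was not tested.

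The number of eroded domains moved with the replicate used. With G1E-ER4+E2 replicate 2 alone in place of the pooled G1E-ER4+E2 list, 1696 domains were eroded, and with replicate 1 alone 1648. With G1E replicate 2 alone in place of the pooled G1E list, 715 of 9796 domains were eroded (7.30%), and with replicate 1 alone 1068 of 11264 (9.48%). Both the number of domains and the share eroded were lower with replicate 2, and the cause was not tested.

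**Figure D2:**
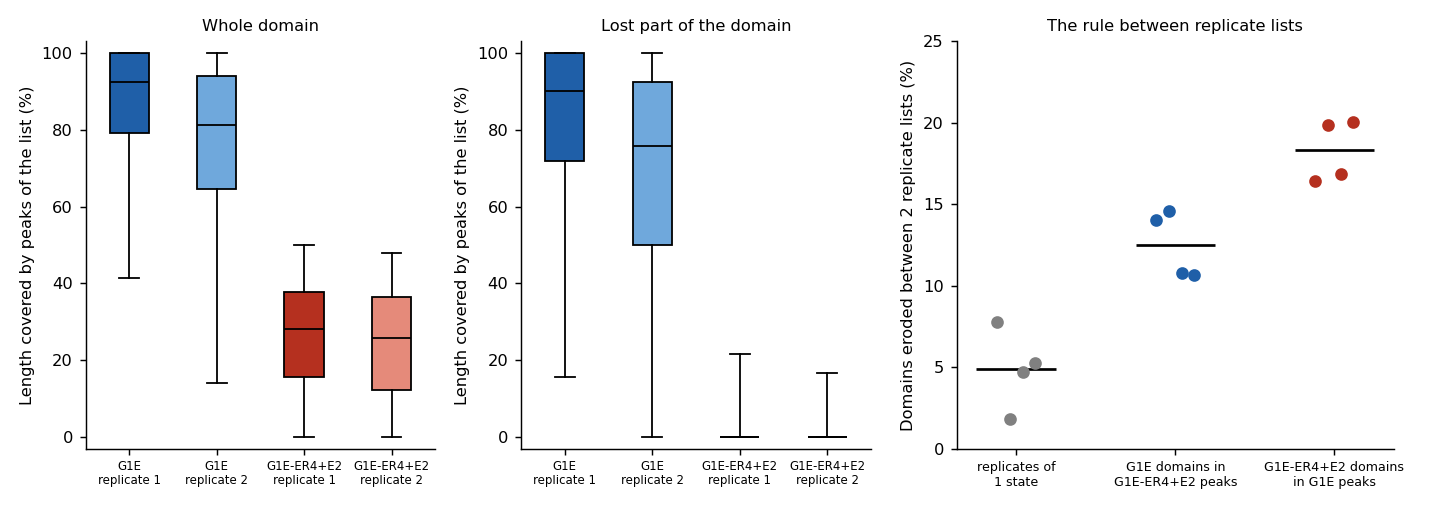
Left and centre, percent of the length of the 1120 eroded domains, and of their lost parts, covered in each replicate list (line, median; box, interquartile range; whiskers, 5th to 95th percentile). Right, percent of domains eroded (vertical axis) for each ordered pair of replicate lists, as points with the mean of 4 pairs as a line. The medians are 92.5% and 81.3% in the G1E replicates and 28.0% and 25.8% in the G1E-ER4+E2 replicates, and pairs between states lie above pairs within a state.

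Enrichment was read as the percentile of a peak among all peaks of its own pooled list. The eroded domains had a median percentile of 62.9 (40.4 to 79.0) in G1E. The strongest overlapping G1E-ER4+E2 peak had a median percentile of 55.3 (30.6 to 74.7) in its list. The difference in percentile, G1E-ER4+E2 minus G1E, had a median of -4.43 points (-26.8 to 15.0), and it was below 0 in 626 eroded domains and above 0 in 494. It compares ranks in 2 lists of unequal size and enrichment, and the G1E-ER4+E2 peak can lie partly outside the domain, so a fall or rise in percentile is a shift in rank and not a measured change in the acetylation of the domain. What remained of them ranged from the weakest to the strongest G1E-ER4+E2 peaks. Mostly kept domains had medians of 69.3 and 78.5 and a median change of 6.31 points, with a rise in 5817 of 8957. The domains without overlap had a median G1E percentile of 45.4. Among the eroded domains the percentile fell by at least 20 points in 349 and rose by at least 20 points in 223. The replicate lists gave medians of 61.4 and 66.6 in G1E and 56.5 and 55.6 in G1E-ER4+E2. These cover only the eroded domains with a peak in the list, 1089 and 1066 in G1E and 973 and 920 in G1E-ER4+E2.

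The eroded domains came in 2 shapes, described here with no test. In 830 (74.1%) every overlapping G1E-ER4+E2 peak lay inside the domain. In 290 a G1E-ER4+E2 peak crossed an end of the domain and ran on outside it, beyond the lower end only in 141, the higher end only in 138 and both ends in 11. The reach outside was at least 1000 bp in 198 and at least as long as the part kept in 148. In these domains the kept part belonged to a peak that marked sequence outside the G1E domain as well. All 755 domains with loss at both ends are of the first shape by construction.

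Domains with the kept part inside had a median percentile of 68.3 in G1E and 56.2 in G1E-ER4+E2, with a median change of -9.01 points and a fall in 530. Domains with a crossing peak had medians of 33.7 and 51.1, with a median change of 10.9 points and a fall in 96. The lowest 25% of the G1E list held 128 of the 290 domains with a crossing peak (44.1%) and 59 of the 830 others (7.11%). Replicate coverage differed in the same direction. Both G1E replicates lay above both G1E-ER4+E2 replicates in 782 of the 830 (94.2%) and in 196 of the 290 (67.6%). The strictest reading held for 283 (34.1%) and 49 (16.9%).

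**Figure D3:**
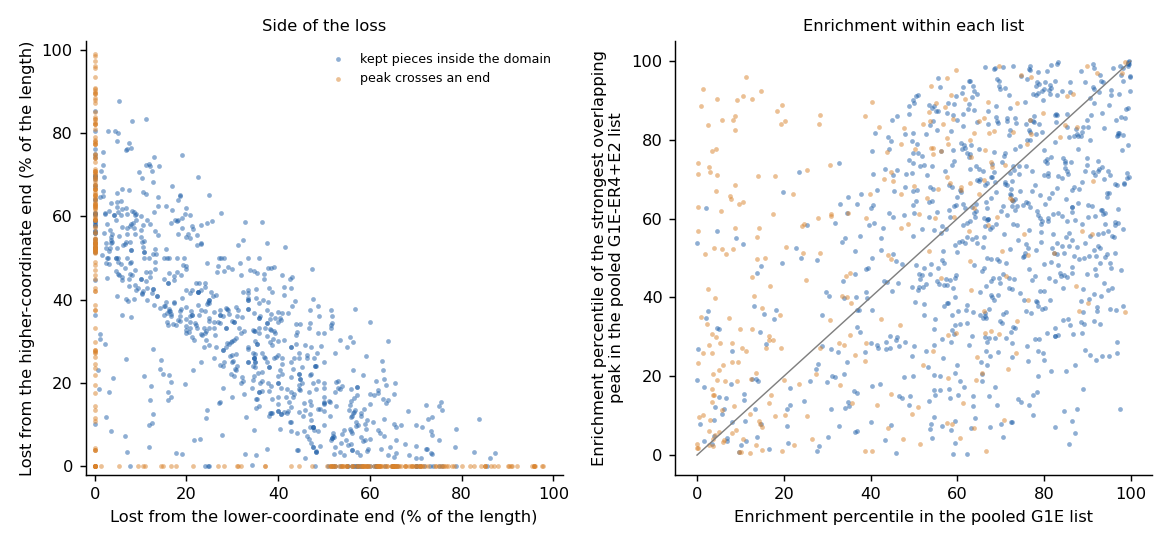
Left, percent of the length lost from the lower-coordinate end (horizontal) and from the higher-coordinate end (vertical) for each of the 1120 eroded domains. Right, enrichment percentile of the domain in the pooled G1E list (horizontal) and of its strongest overlapping peak in the pooled G1E-ER4+E2 list (vertical), with the line of equal percentiles. Blue points are the 830 domains with kept pieces inside and orange points the 290 with a crossing peak, which lie on the axes of the left plot and mostly above the line in the right plot.

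Eroded domains were found in every class of width and enrichment. By width, 7.22% of domains from 4 to 6 kb were eroded, 10.8% from 6 to 10 kb, 12.1% from 10 to 20 kb and 8.62% from 20 kb up. The share without overlap went steadily down over the same classes, from 20.8% through 13.2% and 6.28% to 2.68%. By G1E percentile, in classes of 25 points from the lowest up, 10.3%, 9.49%, 11.04% and 8.08% of domains were eroded. The share of eroded domains with loss at both ends went up with width, from 53.2% to 86.5%, and with G1E percentile, from 25.7% to 87.6%. Domains with a crossing peak cannot lose both ends by construction. They made up 128 of the 187 eroded domains in the lowest percentile class and 25 of the 348 in the highest. The rise with percentile thus reflects at least in part the mix of the 2 shapes. Wider eroded domains were also left in more pieces, with at least 2 pieces in 3.48% of those from 4 to 6 kb and in 51.4% of those from 20 kb up.

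**Figure D4:**
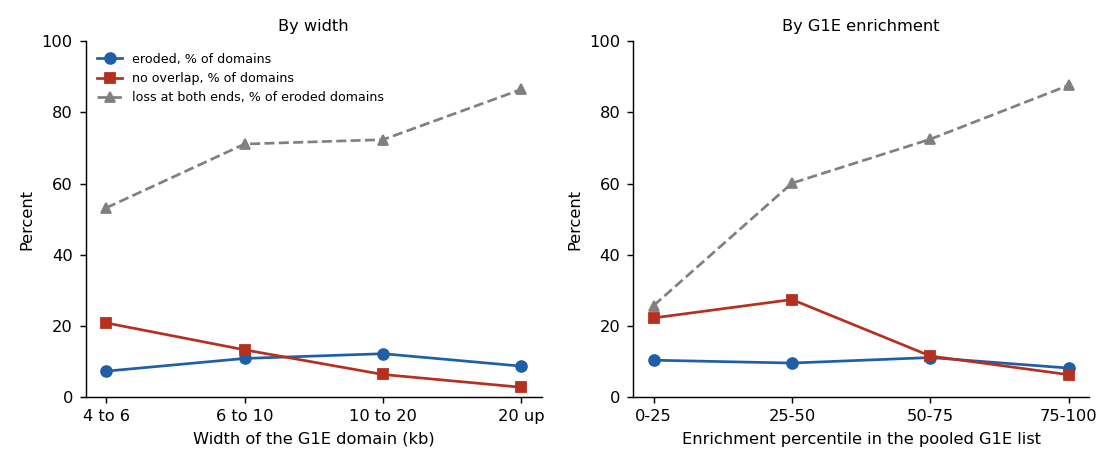
Percent of G1E domains that were eroded (circles) or had no overlap (squares), and percent of eroded domains with loss at both ends (triangles), by width class in kb (left) and by classes of 25 points of the enrichment percentile in the pooled G1E list (right). The eroded share stays between 7.22% and 12.1%, whereas the share with loss at both ends goes up to 86.5% and 87.6% in the last classes. Domains with a crossing peak cannot show loss at both ends, and they made up 128 of the 187 eroded domains in the lowest percentile class.

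Along the genome, the share of domains that were eroded ran over the chromosomes from 5.69% (28 of 492 on chromosome 12) to 13.6% (118 of 869 on chromosome 4). The nearest other domain was itself eroded for 15.3% of eroded domains and for 7.54% of mostly kept domains, 17.6% of domains without overlap and 9.66% of all domains. It was a domain without overlap for 23.8% of eroded domains, 7.84% of mostly kept domains, 34.8% of domains without overlap and 13.1% of all domains. The distance to the nearest domain had a median of 8600 bp for eroded and 9800 bp for mostly kept domains. Neighbouring eroded domains formed 134 runs of at least 2, with no other domain between them, which held 297 domains. The longest run had 5 domains over chr9:106083001-106383600 and lost 29.2 of 40.4 kb. A run of 4 over chr11:120544201-120690200 lost 44.4 of 60.0 kb.

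The 10 longest losses under the strictest replicate reading left between 1 and 4 pieces of domains from 28.4 to 79.4 kb wide. Their separation in the replicate lists was fixed by that reading. The domain at chr16:95632801-95712200 was also the widest of all eroded domains. It was covered over 97.5% and 89.9% in G1E replicates 1 and 2, and over 7.05% and 10.6% in G1E-ER4+E2 replicates 1 and 2. It lost 67.4 of 79.4 kb, of which 27.2 kb was at the lower end, 40.0 kb in the interior and 0.2 kb at the higher end, and 3 pieces remained. Its percentile was 67.2 in G1E and 60.0 in G1E-ER4+E2, the latter being the value of the strongest of its 3 overlapping peaks.

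The domain at chr17:84341601-84401200, the next widest, was covered over 95.3% and 90.3% in the G1E replicates and 12.1% and 11.1% in the G1E-ER4+E2 replicates. It lost 47.8 of 59.6 kb and kept 2 pieces, and its percentile went from 84.4 to 34.3. The domain at chr3:79700801-79747600 was covered over 100% and 91.5%, and 9.83% and 16.7%, in the same order. It lost 36.4 of 46.8 kb and kept 4 pieces.

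The other 7 of these 10 domains lost between 27 and 34.8 kb. The domain at chr14:118568201-118612200 lost 34.8 of 44.0 kb, and it is the one that holds TAL1_1496. The domain at chr9:114660601-114701600 lost 32.2 of 41.0 kb, nearly all of it (30.4 kb) between its 3 kept pieces, and a G1E-ER4+E2 peak crossed its lower end. The domain at chr17:73568201-73603400 lost 29.6 of 35.2 kb. The domain at chr8:26176601-26223600 lost 29.0 of 47.0 kb and kept the longest single piece of the 10, of 13200 bp. The remaining 3 domains shrank to 1 short piece each. The domain at chr4:89162201-89196000 kept 2.0 of 33.8 kb, although it stood at percentile 97.0 in G1E. The domain at chr7:87187001-87216000 kept 1.4 of 29.0 kb. The domain at chr5:65049001-65077400 kept 1.4 of 28.4 kb, and that piece was in neither G1E-ER4+E2 replicate. Over the 10 domains, coverage ranged from 93.8% to 100% in G1E replicate 1, from 82.1% to 95.1% in G1E replicate 2, from 0% to 27.7% in G1E-ER4+E2 replicate 1 and from 0% to 25.1% in G1E-ER4+E2 replicate 2.

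**Figure D5:**
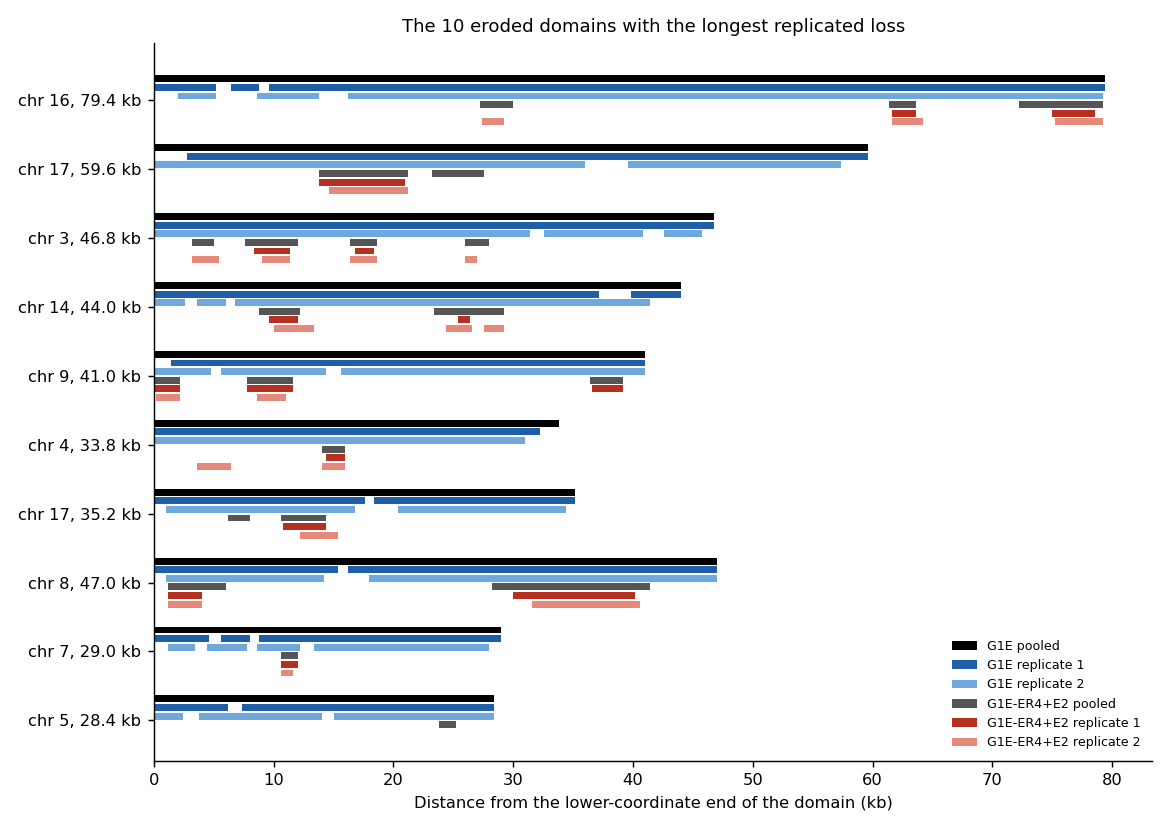
The 10 eroded domains with the longest loss under the strictest replicate reading, named by chromosome and width, with distance from the lower-coordinate end in kb on the horizontal axis. Bars are peaks in the pooled G1E list (black), G1E replicates (blue), the pooled G1E-ER4+E2 list (grey) and G1E-ER4+E2 replicates (red), drawn within the domain. G1E peaks fill nearly the whole length, and G1E-ER4+E2 peaks remain as 1 to 4 short pieces.

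The 3 steepest falls were chosen by the difference in percentile, so a low rank of the remaining piece in the G1E-ER4+E2 list follows from the choice. A domain of 14.0 kb on chromosome 18 went from percentile 97.4 to 11.8, and it was covered over 94.3% and 85.7% in the G1E replicates and 14.3% and 0% in the G1E-ER4+E2 replicates. The domain at chr7:74349801-74357200 went from 85.8 to 2.87, with 97.3% and 94.6% covered in G1E and 0% and 24.3% in G1E-ER4+E2. The domain at chr2:61349801-61356000 went from 87.1 to 5.61, with 87.1% and 93.5% in G1E and no peak in either G1E-ER4+E2 replicate. All 3 lost both ends, and their kept piece was missing from at least 1 G1E-ER4+E2 replicate.

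The steepest rises were of another kind. The domain at chr5:140904001-140908600 went from percentile 1.41 to 92.9, the domain at chr4:155373401-155379000 from 0.851 to 88.6, and the domain at chr11:98863001-98867600 from 4.53 to 90.5. In each of them the overlapping G1E-ER4+E2 peak lay mostly outside the domain, reaching 11.2, 19.0 and 19.6 kb beyond it. The first and the last were covered by no peak in either G1E replicate, and the second was covered over 60.7% in G1E replicate 1 and 0% in G1E replicate 2. The G1E peak was among the weakest of its list in all 3, which follows from their choice by the rise. It was missing from at least 1 G1E replicate.

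The tested segments connect the eroded domains to DNA of known position. Of the transfected segments that the study compiled from its own and earlier work, 6 lay in eroded domains, 119 in mostly kept domains, 4 in domains without overlap and 144 outside domains. All 6 lay wholly within a piece that stayed marked in G1E-ER4+E2. Most of the 6 (those with names starting TAL1) were chosen by the study as TAL1 occupied segments of G1E-ER4+E2 cells, TAL1 being a partner of GATA1 on erythroid enhancers. They were thus chosen in the cell state that defines the kept pieces, and the part of that choice in their place was not tested. The 119 segments in mostly kept domains also lay wholly in G1E-ER4+E2 peaks. The segments named after Alas2 (4), Btg2 (3), Gata2 (9), Hebp1 (2), Hipk2 (14), Vav2 (8) and Zfpm1 (27) included none in an eroded domain. Few of all transfected segments lay in one, 6 beside 119 in mostly kept domains and 4 in domains without overlap. Of all domains, 9.59% were eroded, and whether the segments differ from this share was not tested. With so few in all, finding none among segments from a small set of genes says little about those genes.

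TAL1_1496, whose primers are given above, lay in a kept piece of 5.8 kb of the 44.0-kb domain on chromosome 14. That domain was covered over 94.1% and 90% in the G1E replicates and 7.73% and 16.4% in the G1E-ER4+E2 replicates, and the piece around the segment stood at percentile 4.74 of the G1E-ER4+E2 list. TAL1_2750 lay in the 1.6 kb kept of the 5.4-kb domain chr2:167872201-167877600, which was covered over 100% and 88.9% in G1E and 25.9% and 29.6% in G1E-ER4+E2. Here the kept piece was called in both G1E-ER4+E2 replicates, and it stood at percentile 61.9. TAL1_379 lay in a kept piece of 4.2 kb of the 16.6-kb domain chr10:24347401-24364000, covered over 96.4% in both G1E replicates and over 38.6% and 34.9% in G1E-ER4+E2. That domain opens a run of 3 eroded domains over 165.0 kb that lost 26.8 kb together.

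TAL1_4652 lay in the 2.8 kb kept at the lower end of chr9:45609601-45618200, a domain of 8.6 kb that lost its higher end only. It was covered over 93.0% and 60.5% in the G1E replicates and 32.6% and 0% in the G1E-ER4+E2 replicates, so its kept piece was called in G1E-ER4+E2 replicate 1 alone. GHP16 lay at chr7:74355379-74355948, in the 2.2 kb kept of the 7.4-kb domain whose percentile fell to 2.87. TAL1_2135 lay in the 1.2 kb kept of a 4.8-kb domain on chromosome 18, which was covered over 100% and 95.8% in G1E and 0% and 33.3% in G1E-ER4+E2. The kept piece was thus absent from G1E-ER4+E2 replicate 1 in the domains of GHP16 and TAL1_2135.

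Of the 66 TAL1 occupied segments for which the study drew results of transgenic mouse assays from a public database, 3 lay in eroded domains, again wholly in kept pieces. All 51 in mostly kept domains also lay wholly in G1E-ER4+E2 peaks, as did 9 of those outside domains. The 3 in eroded domains were TAL1_1496, TAL1_2750 and TAL1_3876, the last of which is named after its values were seen. TAL1_3876 lay in the 1.6 kb kept of the 4.6-kb domain chr6:120122401-120127000. This domain was covered over 100% and 56.5% in the G1E replicates and 30.4% and 34.8% in the G1E-ER4+E2 replicates, and it stood at percentile 42.4 in G1E and 52.0 in G1E-ER4+E2. It lost 1.8 kb at the lower end and 1.2 kb at the higher end.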

How the data were processed

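H3K27ac ChIP-seq was analysed in G1E cells (2 replicates) and G1E-ER4+E2 cells (2 replicates), grouped by the sample labels. Broad-peak lists were deposited for each replicate, with 1 pooled list for each state. The submitters' processing notes name bcl2fastq 1.8.4, Bowtie 1.0.0, SICER 1.1 and build mm9, and how replicates were pooled is not given in the sources used here. For each peak the deposited fold enrichment is a ratio on a linear scale as the authors' caller gave it, and the authors' p-values and q-values accompany it. Every q-value was at most 0.01, neighbouring peaks were at least 800 bp apart, and peak edges were multiples of 200 bp. Shorter gaps were thus already closed by the caller, and sizes are resolved to 200 bp. The pooled columns are the authors' pooled values, with no error. No column of other samples was used (0 found).

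Coordinates are 1-based. Covered bases were counted exactly from the lists with Python 3.11.15, NumPy 2.4.6 and pandas 2.3.3, and the counting was tested on simulated data. The enrichment of an eroded domain in G1E-ER4+E2 is that of the overlapping peak with the highest enrichment. Enrichment was ranked within a list only. No test was run, because the pooled lists chose the domains and an exact permutation test of 2 replicates against 2 cannot reach 0.05. Alternatives were each replicate list alone, bases in either or both G1E-ER4+E2 replicates, peaks from the median enrichment of their list, an equal covered length, and other limits on gap, overlap, coverage, width and end loss.

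Domains were named as the 10 longest losses whose lost part was covered over at least 80% in both G1E and at most 20% in both G1E-ER4+E2 replicates, the 3 widest, the 3 largest falls and 3 largest rises in percentile, those next to each limit, and those holding a transfected segment. Segment positions and primers came from the study's supplementary lists. Members and lists were chosen with earlier results of these data known. Genes were not placed and no domain sequence was read, since the gene table used here is of another build, and the planned gene lists were not used.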

Additional observations from a re-analysis of the deposited data

How the results depend on the processing

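Over 12 results, 55 alternative values stayed within a set limit and 47 moved. The limit was a ratio of 1.5 for counts and the SD over replicate pairs for shares. For percentiles it was the SD of the 2 replicate medians of a state, which were themselves among the values judged. Closing gaps of up to 600 bp could change none of its 6 values, because no list has a gap under 800 bp. Counting only bases in both G1E-ER4+E2 replicates gave 2124 eroded domains, a median loss of 66.2% and loss at both ends in 80.04%. Keeping only peaks from the median enrichment of each list gave 680 of 7993 domains (8.51%), 64.4% and 75.9%. A coverage limit of 25% gave 254 domains and a median loss of 82.2%. A limit of 75% gave 2746 domains, 45.5% and loss at both ends in 53.5%. A minimum width of 3000 bp gave a median loss of 64.7%, and 6000 bp gave 65.8%, loss at both ends in 73.0%, and 23.9% eroded from G1E-ER4+E2 to G1E between replicate lists. Counting an end as lost from 600 bp gave loss at both ends in 56.5%. The median G1E-ER4+E2 percentile was 52.8 with the longest overlap and 52.5 with a mean weighted by overlap. Leaving out 1 replicate at a time gave 715 to 1696 eroded domains, a median loss of 64.6% to 65.6%, and loss at both ends in 66.2% to 73.7%. Median percentiles were then 61.4 to 66.6 in G1E and 55.6 to 56.5 in G1E-ER4+E2, over only the eroded domains with a peak in the replicate list. With 1 replicate left out, the order of the states held in 995 to 1069 domains. Leaving 1 out eases the condition, so this count could not fall below the 978 of all 4 replicates and shows no stability. The cause of these shifts was not tested. No paired analysis was possible because the labels do not say that a replicate number marks a shared culture or day, 2 pairs were too few to find this from the data, and no test was run that a block could enter. Depth is unknown, so losses near the calling limit cannot be told from peaks that were missed.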
